A study of Mus musculus with 6 samples.

Results

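The genes described here act in the visual cycle and in the handling of retinoids in the eye, and were fixed as a list of 10 members, Rpe65, Lrat, Rdh5, Rgr, Rrh, Ttr, Rlbp1, Rdh12, Abca4 and Rbp3, out of 18193 genes measured. They were read by every probe set, a group of short oligonucleotides that together report 1 transcript, whose annotation names that gene alone, which gave 16 of the 45037 probe sets. RNA came from adult mouse retina, 3 WT samples and 3 Trim9 KO samples from littermates, on 1 Affymetrix mouse genome array each. The KO mice lack exon 1 of Trim9 in the whole body, through excision by a CMV-driven Cre, and neither the age beyond adult nor the strain is given in the labels. Whether a sample is a single retina or a pool is also not given, so p-values measure the spread between these samples. A note on treatment in the labels speaks of embryos, against the adult tissue named for every sample.

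In the visual cycle, light turns the 11-cis retinal bound to opsin into its all-trans form, and the chromophore is then rebuilt in a relay between photoreceptors and the pigment epithelium behind them, with a further route through Müller glia. In photoreceptors, Abca4 moves retinal conjugates across the disc membrane and Rdh12 reduces retinal to retinol, and Rbp3, secreted into the space between the cell layers, carries retinoids across. In the pigment epithelium, Lrat esterifies retinol, Rpe65 isomerises the ester, Rdh5 oxidises 11-cis retinol, Rlbp1 binds 11-cis retinoids there and in Müller glia, and the opsins Rgr and Rrh respond to light. Ttr carries the retinol-binding protein of plasma and is also made by pigment epithelium. The pigment epithelium is not part of the neural retina, and a dissected retina carries a variable amount of it.

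None of the 10 members differed between genotypes past an adjusted p of 0.05, and the signals of Rpe65, Lrat, Rgr and Rdh5 were highest in 1 sample, Trim9 KO replicate 3. The 4 members of Müller glia and photoreceptors, Rlbp1, Rdh12, Abca4 and Rbp3, all averaged lower in the Trim9 KO than in the WT group, as 44.8% of all genes did (log2 fold changes of -1.22, -0.64, -0.22 and -1.21), and for each of them the samples of the genotypes overlapped. The 6 pigment epithelium members were split, with 4 averaging higher in Trim9 KO samples and 2 lower. Values are intensities on a linear scale, and means, fold changes (Trim9 KO over WT) and standard errors are of log2(intensity + 16), so that changes at low intensity are understated. In limma, 0 of 45037 probe sets passed the adjusted threshold (0%), and 1296 had an unadjusted p under 0.05 (2.88%). None of the 16 probe sets of the members did so (lowest unadjusted p = 0.0797 and adjusted p = 0.999 in limma, for a probe set of Ttr). Over all probe sets the median log2 fold change was 0.18, and it was 0.015 after quantile normalization and -0.14 with equal array medians. Over the 22518 probe sets with a mean above the median it was 0.0009, and the main probe sets of all 10 members are among these. The members are to be read beside these values. The number of arrays limits the precision, since an exact permutation test of 3 samples against 3 cannot give a p below 0.1.

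The arrays themselves differed. Their median intensity ran from 218 on WT replicate 1 to 807 on Trim9 KO replicate 1. The mean log2 signal of the array's spike-in control probe sets for Cre ran from 17.3 on WT replicate 3 to 24.8 on Trim9 KO replicate 1. Trim9 KO replicate 1 had the lowest mean correlation with the other arrays (Pearson's r across probe sets 0.50, against 0.63 to 0.74 for the rest), and the Actb signal of the 3' probe set was 2.83 to 94.5 times that of the 5' probe set, with the ratio above 90 on Trim9 KO replicates 2 and 3. Xist, the RNA of the inactive X chromosome of females, had a log2 intensity of 15.2 on both Trim9 KO replicate 3 and WT replicate 3 (against 6.75 to 9.79). The targeted gene Trim9 read 4226, 1767 and 1667 in WT and 1498, 497 and 367 in Trim9 KO samples by its brightest probe set, so that all 3 KO samples lay below all 3 WT samples (log2 fold change -1.81, standard error 0.99, two-sided exact permutation p = 0.1). Of its other 3 probe sets, 1 lay likewise (-2.48), and the genotypes overlapped by the remaining pair (-0.77 and -0.58). The positions of its probes were not used here, and they may lie outside exon 1. In bulk tissue, fewer cells of a type and less RNA per cell cannot be told apart.

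**Figure D1:**
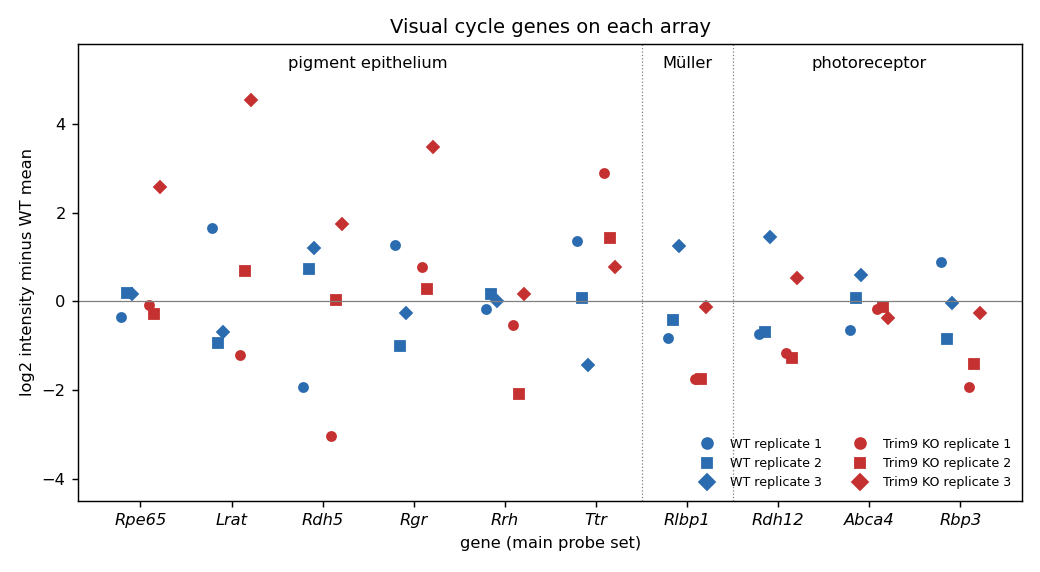
Log2 intensity of each gene, as its main probe set, minus the mean of the 3 WT arrays (y axis), for the 10 genes (x axis), in which blue points are WT arrays, red points are Trim9 KO arrays and the shape gives the replicate number. Trim9 KO replicate 3 (red diamond) is the highest point for Rpe65, Lrat, Rdh5 and Rgr, and its intensity of Rpe65, 9968, lies above the 1290.3 to 1888 of the other 5 arrays.

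Because Rpe65, Lrat and Rgr had their highest signal in the same sample, the bases before their annotated starts are shown beside those of Rbp3, a photoreceptor gene whose highest signal was in another sample. The sequences are from RefSeq on GRCm38.p6, 250 bases up to the start, 5' to 3' on the strand of the gene. They lie at chr3:159598931-159599180 (plus strand) for Rpe65, chr3:82903975-82904224 (minus strand) for Lrat, chr14:37049015-37049264 (minus strand) for Rgr and chr14:33953753-33954002 (plus strand) for Rbp3. Capitals mark TAATCC, the core read by homeodomain factors of the Otx and Crx group, CATGTG, an E-box form read by Mitf, and TATAAA, each searched on both strands, so that capitals also mark the reverse complements. No marked match overlapped another.
Rpe65: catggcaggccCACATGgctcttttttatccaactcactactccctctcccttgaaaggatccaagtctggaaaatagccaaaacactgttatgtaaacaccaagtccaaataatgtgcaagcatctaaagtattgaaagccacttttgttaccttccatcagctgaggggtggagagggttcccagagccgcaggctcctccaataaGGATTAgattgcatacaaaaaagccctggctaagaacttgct
Lrat: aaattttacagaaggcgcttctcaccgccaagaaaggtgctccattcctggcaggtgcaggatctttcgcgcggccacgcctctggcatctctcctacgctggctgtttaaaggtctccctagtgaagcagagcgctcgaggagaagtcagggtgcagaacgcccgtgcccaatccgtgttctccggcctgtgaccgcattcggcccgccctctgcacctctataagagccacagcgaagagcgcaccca
Rgr: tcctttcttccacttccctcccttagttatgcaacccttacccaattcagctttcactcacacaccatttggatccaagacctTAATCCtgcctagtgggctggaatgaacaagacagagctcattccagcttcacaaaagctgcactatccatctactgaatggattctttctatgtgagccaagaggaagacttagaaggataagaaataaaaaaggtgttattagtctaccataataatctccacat
Rbp3: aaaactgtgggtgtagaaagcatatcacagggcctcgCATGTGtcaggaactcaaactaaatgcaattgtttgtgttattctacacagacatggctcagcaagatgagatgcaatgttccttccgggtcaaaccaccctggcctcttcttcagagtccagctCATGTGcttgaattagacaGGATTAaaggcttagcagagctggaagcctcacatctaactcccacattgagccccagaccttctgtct
TAATCC or its complement began 42 bases before the start in Rpe65, 167 in Rgr and 69 in Rbp3. Of the 9 members with an entry in the table (Ttr had none), 4 held it, the fourth being Abca4 at 58 bases, against 6.25% of 32851 promoter windows of the same length. CATGTG began 239 bases before the start in Rpe65, at 213 and 88 in Rbp3 and at 124 in Rlbp1, and 12.3% of all windows held it. TATAAA was held by the windows of Rrh, Rlbp1 and Abca4 and by 12.4% of all windows, and the palindromic E-box CACGTG by 0 of the 9 and by 6.02% of all windows. The Lrat and Rdh5 windows, which belong to genes that were also highest in Trim9 KO replicate 3, held none of the 4 motifs, and the motifs were thus found in pigment epithelium and photoreceptor members alike. These are matches of letters and were chosen with the values of the genes known.

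Rpe65, the isomerohydrolase that makes 11-cis retinol, had intensities of 1290.3, 1888 and 1839 in WT replicates 1, 2 and 3, and of 1560.5, 1337 and 9968 in Trim9 KO replicates 1, 2 and 3. Trim9 KO replicates 1 and 2 lay within the WT range, and Trim9 KO replicate 3 was 5.28 times the next highest sample. The genotype means were 10.70 ± 0.30 and 11.44 ± 1.60 (log2 intensity, SD, n = 3 each), which gave a log2 fold change of 0.74 (standard error 1.05, two-sided exact permutation p = 0.8). Without Trim9 KO replicate 3 it was -0.19.

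Lrat, the acyltransferase that makes the retinyl ester used by Rpe65, had intensities of 6609, 1080.5 and 1285 in WT and 895, 3359 and 49193 in Trim9 KO replicates by its brighter probe set. Trim9 KO replicate 3 again stood highest, at 7.44 times the next sample, and the other samples of the genotypes overlapped. The log2 fold change was 1.33 (standard error 1.43, two-sided exact permutation p = 0.7), and -0.27 without that sample. The dimmer probe set did not share this pattern. It read 7.04, 549 and 504 in WT and 63.0, 17.7 and 90.8 in Trim9 KO samples, a log2 fold change of -1.52 (standard error 1.30), so the direction for Lrat depended on the probe set.

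Rgr, an opsin of pigment epithelium and Müller glia that binds all-trans retinal, read 16401, 3352 and 5665 in WT and 11593, 8209.9 and 76256 in Trim9 KO retinas. Trim9 KO replicate 3 was 4.65 times the next highest sample, and WT replicate 1 came next. The log2 fold change was 1.51 (standard error 1.14, two-sided exact permutation p = 0.3), and 0.52 without Trim9 KO replicate 3. Rdh5, the 11-cis retinol dehydrogenase, read 240.2, 1610.1 and 2255 in WT and 104, 982 and 3252 in Trim9 KO retinas. Its spread was wider in KO than in WT retinas (SD 2.42 against 1.70, log2 intensity, n = 3 each), with the lowest and the highest both in KO retinas. The log2 fold change was -0.42 (standard error 1.35), -1.50 without Trim9 KO replicate 3, 0.88 without Trim9 KO replicate 1 and 0.18 without WT replicate 3. A further probe set names both Rdh5 and Bloc1s1 and was not used.

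Rrh, known as peropsin, was the steadiest of the pigment epithelium members in WT retinas. It read 3154, 4011 and 3587 there and 2443, 825 and 4005 in Trim9 KO samples, with Trim9 KO replicate 3 inside the WT range and Trim9 KO replicate 2 lowest. The log2 fold change was -0.82 (standard error 0.97, two-sided exact permutation p = 0.3), and -0.19 without Trim9 KO replicate 2. Rrh thus stood apart from Rpe65, Lrat and Rgr, since its signal in Trim9 KO replicate 3 was not raised above the WT samples.

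Ttr was read by 4 probe sets, and these differed in direction. The brightest read 468976, 192219 and 67384 in WT and 1353350, 492271 and 313314 in Trim9 KO samples, with Trim9 KO replicate 1 highest, and gave a log2 fold change of 1.70 (standard error 1.08, two-sided exact permutation p = 0.2). The next read 220732, 165465 and 36664 in WT and 1516160, 302872 and 258973 in Trim9 KO samples. It was the only probe set of the 16 with no overlap of genotypes, all KO samples lying above all WT samples, and gave a log2 fold change of 2.16 (standard error 1.12, two-sided exact permutation p = 0.1, the smallest possible). Of all probe sets, 5.16% lay so and 2.76% lay the other way round, as did 0 of the 16. Both of these carry a suffix by which the array's maker marks oligonucleotides that may also bind other transcripts, so they are uncertain for Ttr. The third probe set was highest in Trim9 KO replicate 3 (231612, against 5491 to 122130 in the other samples), its log2 fold change being 0.89 (standard error 1.34) and -0.088 without that sample. The fourth read 1720.2, 3612 and 16392 in WT and 10796, 42.8 and 11443 in Trim9 KO samples, giving -1.28 on the log2 scale (standard error 1.84). Trim9 KO replicate 2 was thus by far the lowest there and the second highest on the brightest probe set.

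**Figure D2:**
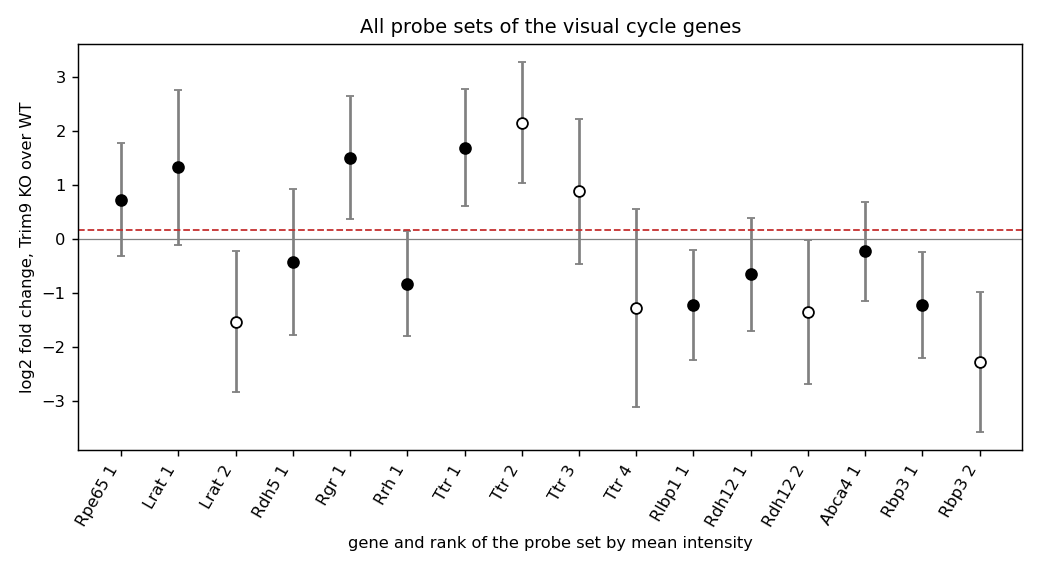
The y axis gives the log2 fold change between Trim9 KO and WT, with its standard error as bars, for all 16 probe sets of the 10 genes (x axis), numbered by mean intensity within a gene. Filled points are main probe sets, open points are others, and the red dashes mark the median over the whole array (0.18); the open points of Lrat (-1.52) and of the fourth Ttr probe set (-1.28) lie on the other side of 0 from the filled points of the same genes.

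Taken by array, the pigment epithelium members without Ttr had a mean log2 intensity of 11.34, 11.07 and 11.33 in WT replicates 1, 2 and 3 and of 10.43, 10.96 and 13.75 in Trim9 KO replicates 1, 2 and 3. The mean in Trim9 KO replicate 3 stood above those of the other 5 samples, which lay close together. Single members differed in their spread over these 5 samples, from 1290.3 to 1888 for Rpe65 and from 104 to 2255 for Rdh5. Of the 6 members, 4 had their highest signal in Trim9 KO replicate 3, whereas 8.77% of all genes did. Trim9 KO replicate 1 was the most frequent highest sample over all genes (31.3%). Both shares include dim genes. Trim9 KO replicate 3 minus the mean of the other 5 arrays had a median of -0.063 over all genes. It was 0.12 over genes with a mean above the median of all probe sets, as all members are. The median log2 fold change of the 6 members was 1.03, and it fell below 0 (-0.23) without Trim9 KO replicate 3. It was 0.32 with the mean of each gene's probe sets. With the second probe sets of Lrat and Ttr, and the only one of each other member, it was 0.16. Without Trim9 KO replicate 3, 2 of the 6, Rgr and Ttr, kept a higher mean in KO retinas. The list of 26 other pigment epithelium and melanin genes moved in part with these members. Of its 22 measured genes, 9 were highest in Trim9 KO replicate 3 and 8 in Trim9 KO replicate 1, against 8.77% and 31.3% of all genes. The mean log2 intensity of the list was 10.26 and 10.23 in these samples, against 8.68 in Trim9 KO replicate 2 and 9.02 to 9.34 in WT samples. The median intensity of all probe sets was 252 in Trim9 KO replicate 3 and 807 in Trim9 KO replicate 1. The median log2 fold change of the list was 0.66 (0.32 after quantile normalization, 0.34 with equal array medians, and from 0.38 without Trim9 KO replicate 3 to 1.07 without Trim9 KO replicate 2), with 16 genes averaging higher and 6 lower, from 2.59 for Mlana, a melanosome protein, to -1.77 for Mitf, a transcription factor of pigment cells. All 3 KO samples lay above all 3 WT samples for 2 of the 22, Mlana and Oca2, against 5.35% of all genes. Tyrp1, an enzyme of melanin synthesis named after its values were seen, read 12063 in Trim9 KO replicate 3 and 593 to 1503 in the other 5 samples. The chloride channel Best1, a marker of pigment epithelium, read 33.9 in Trim9 KO replicate 3 and 22.2 to 875 elsewhere, and Pmel, of the melanosome, was highest in Trim9 KO replicate 1 (4169, against 73.4 to 491). The part of carried-over pigment epithelium in the genotype means of Rpe65, Lrat, Rgr and Rdh5 was not tested.

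**Figure D3:**
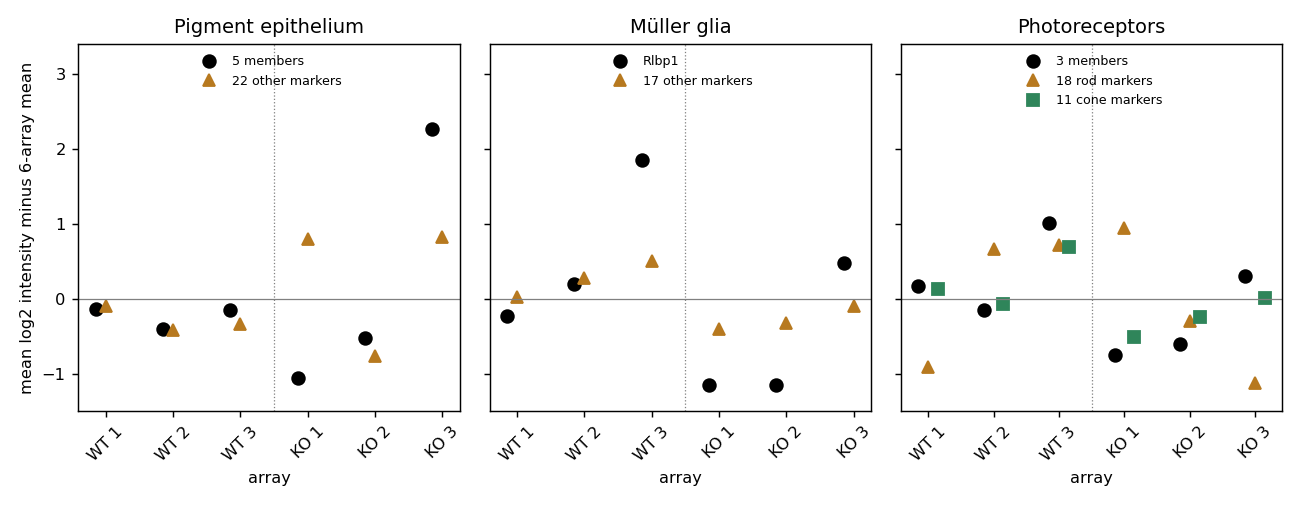
Mean log2 intensity minus its mean over the 6 arrays (y axis) for each array (x axis), in panels for pigment epithelium, Müller glia and photoreceptors. Black circles are the visual cycle members (in the pigment epithelium panel without Ttr), and brown triangles and green squares are lists of other markers of the same cells; the pigment epithelium members are highest on KO 3, and their markers on KO 3 and KO 1 (10.26 and 10.23 as log2 intensity).

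Rlbp1, the 11-cis retinoid carrier of Müller glia and pigment epithelium, read 7548, 10101 and 32028 in WT and 3966, 3955 and 12262 in Trim9 KO retinas. Both genotypes had their highest value in replicate 3, and the KO values in replicates 1 and 2 lay below every WT sample. The means were 13.72 ± 1.10 and 12.50 ± 0.94 (log2 intensity, SD, n = 3 each), and the log2 fold change was -1.22 (standard error 1.02, two-sided exact permutation p = 0.3). It ranged from -1.76 without Trim9 KO replicate 3 to -0.60 without WT replicate 3. The 17 other Müller glia genes averaged lower in KO retinas in 13 cases and higher in 4, where 44.8% of all genes averaged lower. Their median was -0.51, from -3.02 for the lipid carrier Apoe (standard error 1.81) to 1.26 for the chaperone Clu (standard error 1.02). Both genes had overlapping genotypes, and Apoe read 34.9, 1274 and 14982 in WT and 432, 131 and 11.9 in KO samples. The mean log2 intensity of the 17 genes was 12.28 to 12.77 in WT and 11.85 to 12.17 in KO samples, ranges that did not overlap. How often other lists of this size separate so was not determined, and this list was chosen with earlier results known. None of the 17 genes reached an unadjusted p of 0.05 in limma. Only Car14, a carbonic anhydrase named after its values were seen, had all KO samples below all WT samples, against 2.89% of all genes. The part of glial content in the values of Rlbp1 was not tested.

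Rbp3, the retinoid-binding protein between photoreceptors and pigment epithelium, read 249820, 75357 and 132032 in WT and 35208, 50684 and 112481 in Trim9 KO retinas by its brighter probe set. The lowest WT sample, replicate 2, lay below the highest KO sample, replicate 3, and above the other KO samples. The log2 fold change was -1.21 (standard error 0.98, two-sided exact permutation p = 0.2), and it stayed negative when any 1 array was left out (-1.68 to -0.77). The dimmer probe set read 16.8, 651 and 1012 in WT and 55.2, 44.5 and 30.6 in KO samples, or -2.27 as log2 fold change (standard error 1.29). WT replicate 1 and all KO samples were dim there, and no detection calls were used here to set a background.

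Rdh12, the retinal reductase of photoreceptor inner segments, read 6308, 6509 and 28766 in WT and 4716, 4312 and 15161 in Trim9 KO retinas. As for Rlbp1, replicate 3 was highest in each genotype, and the log2 fold change was -0.64 (standard error 1.05, two-sided exact permutation p = 0.5), and 0.077 without WT replicate 3. Its second probe set read 279, 894 and 8002 in WT and 1781, 319 and 202 in KO samples (log2 fold change -1.34, standard error 1.34), so WT replicate 3 was the highest sample by both probe sets, whereas Trim9 KO replicate 3 was second highest by one and lowest by the other.

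Abca4, the flippase of the disc rim, varied least of all members. It read 13418, 22007 and 31569 in WT and 18713, 19267 and 16294 in Trim9 KO retinas, and every KO sample lay inside the WT range. The means were 14.36 ± 0.62 and 14.14 ± 0.13 (log2 intensity, SD, n = 3 each), and the fold change between them was -0.22 on the log2 scale (standard error 0.91, two-sided exact permutation p = 0.7), and 0.070 without WT replicate 3. Its highest sample was 2.35 times its lowest, a log2 range of 1.23, against 5.75 for the main probe set of Lrat and a median of 2.77 over the 12056 genes with a mean above the median of all probe sets. The median range of the photoreceptor members was 2.73 and that of the pigment epithelium members 4.41.

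All 5 probe sets of the photoreceptor members averaged lower in KO samples, as did 43.6% of all probe sets, and the genotypes overlapped in all 5 (all KO samples lay below all WT samples in 2.76% of all probe sets and above in 5.16%). The 3 genes had a median log2 fold change of -0.64, which became -1.23 when Trim9 KO replicate 3 was left out and 0.070 when WT replicate 3 was. By array, their mean log2 intensity was 14.76, 14.43 and 15.59 in WT and 13.84, 13.98 and 14.89 in KO samples. The 11 measured cone genes had mean log2 intensities of 11.73, 11.54 and 12.29 in WT and 11.09, 11.36 and 11.61 in KO samples, while the 18 measured rod genes had 13.99, 15.56 and 15.60 in WT and 15.84, 14.59 and 13.77 in KO samples. By these means the members were highest in WT replicate 3 and lowest in Trim9 KO replicate 1, as were the cone genes but not the rod genes. No single member had both of these extremes. Rdh12 was lowest in Trim9 KO replicate 2, Abca4 was lowest in WT replicate 1, and Rbp3 was highest in WT replicate 1. Of the cone genes, 7 averaged lower in KO samples (median -0.70, from -1.59 for Opn1sw, the short-wave opsin, to 1.33 for the thyroid hormone receptor Thrb). Of the rod genes, 14 did (median -0.50, from -1.35 for the arrestin Sag to 1.56 for the rhodopsin kinase Grk1), and their median was -0.97 after quantile normalization, -1.03 without WT replicate 1 and -0.18 without WT replicate 2. Trim9 KO replicate 1, in which rod genes were highest, had the lowest mean of the photoreceptor members and the lowest correlation with the other arrays. The Actb ratio was 20.2, 9.87 and 3.43 in WT and 2.83, 94.5 and 90.5 in Trim9 KO replicates 1, 2 and 3. Whether this ratio bears on the members was not tested.

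Replicate 3 was the highest sample of both genotypes for 3 of the 10 members, Rdh5, Rlbp1 and Rdh12, and for 5.5% of all genes. These are the 2 samples with high Xist, and they differ in the Actb ratio (3.43 in WT replicate 3 and 90.5 in Trim9 KO replicate 3). Each genotype held 1 such sample, and the part of sex in these members was not tested.

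**Figure D4:**
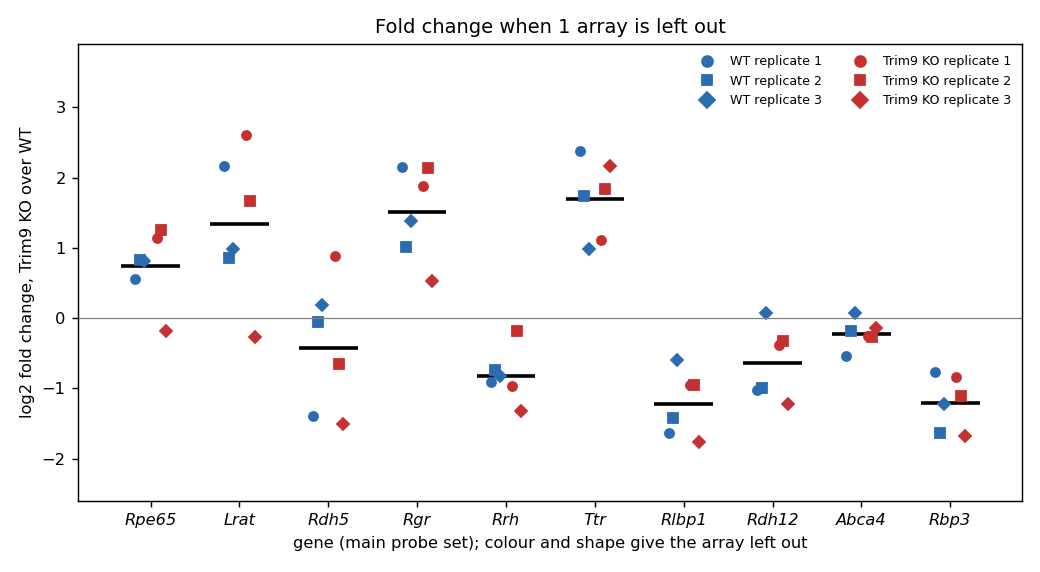
Effect of leaving out 1 array on the log2 fold change between Trim9 KO and WT (y axis) of the 10 genes by main probe set (x axis). The black line is the value over all 6 arrays, and each point leaves out the array given by its colour and shape; Rpe65 and Lrat are below 0 (-0.19 and -0.27) only without Trim9 KO replicate 3, and Rgr, Ttr, Rrh, Rlbp1 and Rbp3 keep their side of 0 whichever array is left out.

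The wider retinoid pathway was examined as a list of 33 other enzymes, carriers and transporters, of which 28 were measured, and 6 retinoid receptors. Neither list held a gene below an adjusted p of 0.05 in limma. Each held 1 below 0.05 unadjusted, Rdh1 and Rxra, where 2.88% of all probe sets lay so. Of the 28, 16 averaged higher and 12 lower in KO samples, where 44.8% of all genes averaged lower. The median log2 fold change of the 28 was 0.15, with a change of sign to -0.17 under equal array medians and to -0.034 without WT replicate 1. All KO samples lay above all WT samples for Rdh1, a retinol dehydrogenase (85.9, 79.6 and 141 in WT and 1488, 729 and 273 in KO samples, log2 fold change 2.58, standard error 0.99), and for Rdh13, a mitochondrial member of the same family (0.68). All KO samples lay below for Dhrs7, another short-chain dehydrogenase (-0.99). Aldh1a2, which makes retinoic acid, had a log2 fold change of 2.19 (standard error 1.16) and Scarb1, a lipoprotein receptor that takes up carotenoids, of 1.48 (standard error 0.98), both with overlap. Rdh10, a retinol dehydrogenase named after its values were seen, read 20144 in Trim9 KO replicate 3 and 5257 to 9093 in the other samples, the same highest sample as for Rpe65. It was 1 of 4 such genes of the 28, whereas 9 were highest in Trim9 KO replicate 1 and 7 in WT replicate 2, and the mean log2 intensity of the list in Trim9 KO replicate 3 (8.96) was the second lowest of the 6 samples. Of the receptors, Rxra read 620.3, 2809 and 788 in WT and 202, 169.6 and 88.9 in KO samples, giving a log2 fold change of -2.80 (standard error 0.99, two-sided exact permutation p = 0.1, limma adjusted p = 0.999) with no overlap. Such a position, all KO below all WT, was found for 2.89% of all genes, and all KO above all WT for 5.35%. The median of the 6 receptors was -0.29, with 4 lower and 2 higher, and it ranged from -0.74 without WT replicate 2 to -0.17 without Trim9 KO replicate 2.

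Other tissue that a dissected retina can carry was followed by 3 further lists, none of which was highest most often in the sample where Rpe65 was. The 14 measured genes of choroid, ciliary body and vessels had a mean log2 intensity of 8.05 to 8.92 in WT and 8.16 to 8.77 in KO samples (median log2 fold change 0.28, and -0.038 with equal array medians, from -1.47 for Tagln to 1.59 for Pecam1). The 11 lens genes were at 6.38 to 8.04 in WT and 6.63 to 7.88 in KO samples (median 0.048, turning to -0.33 after quantile normalization, from -0.86 for Bfsp2 to 1.91 for Crygs). The 4 measured blood genes were at 6.64 to 8.58 in WT and 7.38 to 8.71 in KO samples (median 0.49, from -0.14 for Ptprc to 1.80 for Slc4a1). Trim9 KO replicate 3 was the highest sample for 2 of the 14 choroid, ciliary body and vessel genes and for 0 of the lens and blood genes. Most lens and blood genes were dim. Only 1 of the 11 and 1 of the 4 had a mean above the median of all probe sets, against 8 of the 14. The part of such tissue in the values of the members was not tested.

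The genes nearest in pattern were found by the root mean square difference of mean-centred log2 intensity over the 6 samples, among 12046 other genes with a mean above the median of all probe sets. Nearest to Rpe65 were Tlcd4 (0.39), Rai14 (0.42), Sema3c (0.42), Slc1a1 (0.53) and Cry1 (0.54), where the median gene lay at 1.40. Tlcd4 read 17128 in Trim9 KO replicate 3 and 1561 to 2573 in the other samples. Nearest to Rlbp1 were Usp32 (0.24), Pithd1 (0.26), Sipa1l2 (0.26), Fam234b (0.29) and Nedd8 (0.29), and nearest to Rbp3 were Rcan1 (0.22), Hnrnpa0 (0.24), Irs1 (0.26), Nim1k (0.29) and Rora (0.29). With 6 samples and this many genes, near neighbours are found for most patterns, and these are given as a description.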

How the data were processed

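Per the labels, total RNA of retina was amplified into biotin-labelled RNA and measured on Affymetrix arrays of the mouse genome. The deposited file gives intensity on a linear scale, and the authors' scaling made each array's mean, trimmed by 2% at both ends, the same. MAS5 is named in the submitters' notes, whereas the methods state RMA, whose log2 scale and equal distributions these values do not have. The 6 array columns were all used, and 0 pairs were identical. Control probe sets (64) were left out. Probe sets naming several genes (932) or none (9160) were assigned to no gene.

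Genotypes were compared on log2(intensity + 16) by the moderated linear model of limma 3.58.1, run in R 4.3.3 over all 45037 probe sets, with Benjamini-Hochberg adjustment, no filter and no block. The brightest probe set by mean over the 6 arrays was the main one of its gene. Exact permutation tests were two-sided. Simulated data with known changes were also fitted, and the changes were recovered at a smaller spread between arrays but not at the spread of these arrays. The members and lists were chosen with earlier results of these data known, and members were left out of every list. Named were all members; pathway genes without overlap or among the 5 with the largest limma statistic; the ends of each marker list; and the 5 nearest genes in pattern to Rpe65, Rlbp1 and Rbp3. Genes named outside this rule are said to be so, apart from Oca2, Best1 and Pmel, which were also named after their values were seen. The settings varied were the scaling (quantile, or equal array medians), a filter on dim probe sets, pseudocounts of 1 and 64, an intensity trend with a robust prior, array weights, the replicate number as a block, the mean or the second of a gene's probe sets, and leaving out each array.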

Additional observations from a re-analysis of the deposited data

How the results depend on the processing

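Across 16 alternative settings, 0 members and 0 probe sets passed limma's adjusted threshold (lowest adjusted p of a member 0.627), and 854 to 3637 probe sets had an unadjusted p under 0.05 where all 45037 were fitted. Deviations from the genotype means of same-numbered arrays correlated at -0.23, -0.081 and 0.033, and those of other pairs at -0.29 to 0.28. With 3 arrays a genotype of unequal quality, these values cannot show whether the replicate numbers pair littermates. With the replicate block, 0 members and 0 probe sets passed. When 1 array was left out, the median log2 fold change ranged from -0.75 to 0.32 for the 10 members, from -0.23 to 1.46 for the pigment epithelium members and from -1.23 to 0.070 for the photoreceptor members. For single genes it ranged from -0.19 to 1.25 for Rpe65, -0.27 to 2.61 for Lrat, -1.50 to 0.88 for Rdh5, -1.23 to 0.077 for Rdh12 and -0.55 to 0.070 for Abca4. The median of the members was above 0 without Trim9 KO replicate 1 (0.32) or WT replicate 3 (0.13). Lrat was at -0.095 as the mean of its probe sets and at -1.52 by its second. The photoreceptor median was -1.34 with second probe sets, Abca4 keeping its only one. Rlbp1 also has 1 probe set, so this setting gave no value of its own for it. Without WT replicate 3, Rdh5 was at 0.18. The cause of these shifts was not tested. In settings added after seeing the data, leaving out 1 array moved the median from -0.77 (without Trim9 KO replicate 3) to -0.24 (without WT replicate 1) for the Müller glia list, from -1.14 (without WT replicate 1) to -0.31 (without WT replicate 2) for the cone list, from -0.14 (without Trim9 KO replicate 2) to 1.17 (without WT replicate 2) for the lens list, from 0.20 (without Trim9 KO replicate 3) to 1.14 (without WT replicate 2) for the blood list, and from 0.045 (without Trim9 KO replicate 2) to 0.48 (without Trim9 KO replicate 3) for the choroid, ciliary body and vessel list. With equal array medians it was -0.83 for the Müller glia, -0.82 for the rod and -0.61 for the receptor list. Rgr, Rrh, Ttr, Rlbp1 and Rbp3 kept their sign in every setting that gave a value. The limit throughout is 3 arrays a genotype with unequal quality, and no detection call to separate dim signal from background.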
